A study of Homo sapiens with 4 samples.

Results

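The Wnt feedback and target genes are 10 genes that β-catenin/TCF signaling is known to switch on or that act back on the pathway: AXIN2, NKD1, NOTUM, DKK1, RNF43, ZNRF3, LGR5, TCF7, LEF1 and SP5. They were picked by name from the 58735 genes of the deposited tables, and all 10 were found. RNA-seq was carried out on MHCC-97H cells, an established human HCC line with high metastatic capacity, and every condition had a single library. The cells, labelled WT in all 4 conditions, received either PBS or 2 μg of migrasomes (Migs) for 24 h. Migs are large extracellular vesicles left behind by migrating cells. The donors of the Migs were MHCC-97H cells in normoxia (normo-Migs), MHCC-97H cells in hypoxia (hypo-Migs), or hypoxic MHCC-97H cells in which CD147 had been knocked out (CD147KO-Migs). The knockout thus concerns the donor cells, so CD147 (BSG) RNA in the treated cells cannot check it, and the sources used here do not say whether the knockout line is 1 clone. The labels assign all libraries to batch 1. The comparisons ask whether Wnt readout genes differed after Mig uptake, after Migs of hypoxic rather than normoxic donors, and with or without CD147 in the donors.

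Wnt ligands bind Frizzled receptors and the LRP5 and LRP6 coreceptors on the cell surface. The signal blocks the destruction complex of AXIN, APC and GSK3 proteins, so that β-catenin accumulates, enters the nucleus and acts with TCF/LEF factors at target genes. Many targets are themselves inhibitors of the pathway, a form of negative feedback, and AXIN2 is widely used as its readout. In the liver, Wnt activity marks hepatocytes around the central vein, and β-catenin is often mutated in HCC.

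The libraries held 33882496 to 40285223 reads on genes. A gene at 0 reads could have had up to 3 reads, a level of 0.0745 to 0.0885 reads per 1000000 reads on genes (CPM). Intervals on CPM are 95% Wilson intervals and intervals on ratios are exact 95% intervals. Both cover counting error only, because every condition had a single library. Reads also carried no molecular identifiers and need not stand for separate molecules, so the intervals may be too narrow even for counting error. Differences between 2 libraries were called when edgeR's exact binomial test gave an adjusted p of 0.05 or less and the log2 fold change was at least 1 in size, the criteria that the study names. With 1 library per condition, such a test compares libraries and not conditions, and no difference here has a replicate check. The library labelled PBS stood apart from the others. It differed from a Mig library in 27.2% to 28.3% of the 19895 genes tested, whereas 2 Mig libraries differed in 4.9% to 5.04%. Mitochondrial genes took 2.69% of its reads and 5.00% to 5.16% of those of the Mig libraries. Of 15 hepatocyte and HCC markers, ALB, AFP, APOB and TTR had 0 reads in all 4 libraries, so the defining RNAs of hepatocytes were absent. KRT8 had at least 105571 reads and KRT18 at least 36742 in every library, and EPCAM had at least 578, so the epithelial markers of the list were present. FGA, a fibrinogen chain of the same list, had 0 reads with PBS and 395 to 493 with Migs. In all, 379 genes had 3 reads or fewer with PBS and at least 50 in each Mig library, a pattern found for 0 genes in any single Mig library. The labels give all 4 libraries the same cell line, but whether the library labelled PBS came from the same cells as the others was not tested. A ratio to PBS therefore compares these libraries and cannot be read as an effect of Migs alone. Results that involve the library labelled PBS are given apart from those among the 3 Mig libraries.

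Against the library labelled PBS, AXIN2, NKD1, TCF7 and LEF1 were higher in every Mig library, by 18.2-fold or more. They had at most 6 reads with PBS and between 74 and 771 with Migs. The inhibitors DKK1 and RNF43 and the factor SP5 were higher by smaller ratios, ZNRF3 lay close to its PBS level, and NOTUM was lower with normo-Migs and hypo-Migs. Between hypo-Migs and PBS, 4 of the 9 genes tested were called, all higher, where 17.4% of all genes tested were called higher. Between normo-Migs and PBS, 5 of 9 were called higher against 16.5% of all genes, and between CD147KO-Migs and PBS, 4 of 9 against 16.6%. By the adjusted p alone, 8, 9 and 7 of the 9 genes passed, against 71.3%, 69.7% and 69.9% of all genes tested. These 3 comparisons use the same PBS library, so they are not independent of each other. The 4 genes also passed the filter of at least 10 reads in at least 1 library only through the Mig libraries, so their counts are descriptions. When at least 10 reads were required in every library, they were not tested, and 0, 1 and 0 of the 5 genes left were called. Under that filter, 2744, 2684 and 2753 of all 14970 genes tested were called in the same order. When DESeq2 took the 4 libraries as if they were replicates, 0 of 9 were called in each comparison. This setting called 0 of all genes tested, so its counts say nothing about these 9 genes in particular.

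**Figure D1:**
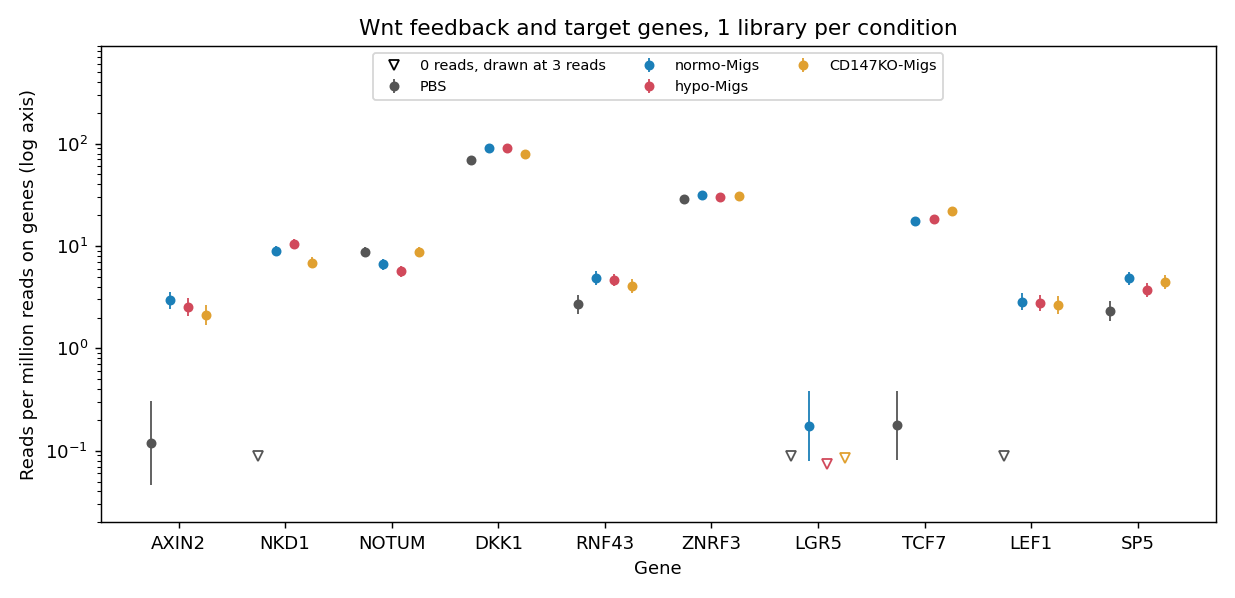
Level of each gene in each library, in reads per 1000000 reads on genes on a log axis. Points are single libraries, bars are 95% Wilson intervals, and open triangles mark genes with 0 reads, drawn at the level of 3 reads. AXIN2, NKD1, TCF7 and LEF1 sit below 0.4 CPM with PBS and above 2 CPM in each Mig library, while DKK1, ZNRF3, RNF43, NOTUM and SP5 differ from PBS by at most 2.17-fold after scaling.

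AXIN2 (ENSG00000168646; chromosome 17, 65528563 to 65561647, minus strand, GRCh38) encodes a scaffold of the destruction complex that is itself a direct β-catenin target. It had 4 reads with PBS, 102 after normo-Migs, 102 after hypo-Migs and 74 after CD147KO-Migs. These were 0.118 CPM (0.0459 to 0.304), 2.95 CPM (2.43 to 3.58), 2.53 CPM (2.09 to 3.07) and 2.11 CPM (1.68 to 2.65). The PBS interval thus did not touch the Mig intervals, and the Mig intervals overlapped each other. With hypo-Migs, scaled AXIN2 reads were 21.9-fold those with PBS (8.31 to 82.0). The ratio was 25.8 (9.79 to 96.6) with normo-Migs and 18.2 (6.83 to 68.7) with CD147KO-Migs. The annotation places AC004805.1 on the same strand over 1316 of the 5226 exonic bases of AXIN2, and this gene had at most 1 read. How reads in shared bases were assigned is not given in the sources used here.

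NKD1 (ENSG00000140807; chromosome 16, 50548330 to 50649249, plus strand) encodes a cytoplasmic protein that binds Dishevelled and dampens the signal. It had 0 reads with PBS, 312 after normo-Migs, 425 after hypo-Migs and 241 after CD147KO-Migs. Set against 3 reads in the PBS library, NKD1 was 105-fold higher for normo-Migs, 122-fold for hypo-Migs and 79.2-fold for CD147KO-Migs. The exact intervals of the ratio to 0 PBS reads began at 85.2, 98.6 and 63.9 in that order. NKD1 and LEF1 were among the 379 genes nearly absent from the PBS library alone, which were 2.89% of the 13119 genes with at least 50 reads in each Mig library.

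TCF7 and LEF1 encode HMG-box factors that carry β-catenin to target genes. TCF7 (ENSG00000081059; chromosome 5, 134114711 to 134151865, plus strand) had 6 reads with PBS, 611 after normo-Migs, 742 after hypo-Migs and 771 after CD147KO-Migs. This made 0.177 CPM (0.0812 to 0.386) with PBS and 17.7 to 22.0 CPM with Migs. The ratio of hypo-Migs to PBS was 106 (48.6 to 291), and all 3 Mig libraries lay far above the PBS library. SKP1, on the opposite strand, shares 210 of the 10063 exonic bases of TCF7, and the sources used here do not say whether counting used strand. SKP1 had 4679 reads with PBS, where TCF7 had 6. LEF1 (ENSG00000138795; chromosome 4, 108047545 to 108168956, minus strand) had 0 reads with PBS, 99 after normo-Migs, 112 after hypo-Migs and 93 after CD147KO-Migs. Set against 3 PBS reads, it was 33.4-fold, 32.1-fold and 30.6-fold higher in the Mig libraries in that order. The exact intervals of the ratio to 0 PBS reads began at 26.7, 25.7 and 24.4. Its antisense gene LEF1-AS1 had 0 reads in every library.

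LGR5 (ENSG00000139292; chromosome 12, 71439770 to 71586310, plus strand), an R-spondin receptor and stem cell marker, had 6 reads with normo-Migs and 0 in the other libraries. This was 0.174 CPM (0.0796 to 0.379), an interval that includes the 3-read limit. LGR5 had fewer than 10 reads in every library and was not tested. Its relative LGR4 was well covered, with 2861 reads for PBS and 2732 to 3293 with Migs.

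DKK1 (ENSG00000107984; chromosome 10, 52314296 to 52318042, plus strand) encodes a secreted inhibitor that occupies LRP5 and LRP6. It was the highest of the 10 genes per length in each library. DKK1 had 2324 reads with PBS, 3109 after normo-Migs, 3634 after hypo-Migs and 2796 after CD147KO-Migs, or 68.6, 90.0, 90.2 and 79.8 CPM. The PBS library was the lowest, and its interval (65.9 to 71.4 CPM) lay below those of the Mig libraries. The ratio to PBS was 1.36 (1.28 to 1.43) for normo-Migs, 1.34 (1.28 to 1.42) for hypo-Migs and 1.19 (1.12 to 1.25) for CD147KO-Migs. These ratios exceeded counting error but not the fold criterion.

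SP5 (ENSG00000204335; chromosome 2, 170715351 to 170718078, plus strand) encodes a zinc finger factor that binds promoters of Wnt targets. It had 78 reads with PBS, 167 after normo-Migs, 151 after hypo-Migs and 155 after CD147KO-Migs. The ratio to PBS was 2.17 (1.65 to 2.88; adjusted p = 1.58e-08 in edgeR's exact binomial comparison) with normo-Migs, and SP5 was called there. With hypo-Migs the ratio was 1.66 (1.26 to 2.22) and with CD147KO-Migs 1.96 (1.48 to 2.60), neither of which reached the fold criterion. A call in 1 comparison alone does not make the Mig libraries differ, and hypo-Migs and normo-Migs were not called apart for SP5 (adjusted p = 0.0739, the same exact test).

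Promoters of DKK1, TCF7, LEF1, RNF43 and SP5 are in the RefSeq table used (GRCh38.p14), and AXIN2, NKD1, NOTUM, ZNRF3 and LGR5 have no entry there. The 250 bases before each start were searched on both strands for the TCF/LEF core letters CTTTGAA, and likewise for the variant CTTTGAT, for the variant CTTTGTA and for the variant CTTTGTT. The letters were found before DKK1 and SP5, which are printed below to show where they lie, and not before TCF7, LEF1 and RNF43. Of 27305 promoters searched over the same length, 12.1% held at least 1 match and 1.22% held at least 2. Each sequence runs 5′ to 3′ along its gene, which is on the plus strand in both cases, and capitals mark the matches. The DKK1 window, chr10:52314031-52314280, lies within an exon of the antisense gene PRKG1-AS1 in GENCODE. The SP5 window, chr2:170715087-170715336, overlaps no annotated exon.
DKK1: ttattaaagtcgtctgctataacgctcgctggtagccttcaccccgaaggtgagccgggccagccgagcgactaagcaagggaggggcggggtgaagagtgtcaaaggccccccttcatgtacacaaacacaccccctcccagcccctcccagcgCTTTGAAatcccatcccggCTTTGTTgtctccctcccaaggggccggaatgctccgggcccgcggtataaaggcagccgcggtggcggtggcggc
SP5: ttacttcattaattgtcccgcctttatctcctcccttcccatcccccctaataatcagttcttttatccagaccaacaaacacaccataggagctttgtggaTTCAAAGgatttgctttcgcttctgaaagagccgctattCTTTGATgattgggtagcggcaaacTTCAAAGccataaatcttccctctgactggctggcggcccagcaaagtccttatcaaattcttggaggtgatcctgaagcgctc
The DKK1 window holds CTTTGAA 95 bases and CTTTGTT 76 bases before the start. The SP5 window holds CTTTGAA on the opposite strand 148 and 84 bases before the start, where the printed strand reads TTCAAAG, and CTTTGAT 109 bases before it. A match describes letters only and is not evidence of binding. The RefSeq starts lay 902 and 2655 bases inside the 5′ ends of TCF7 and LEF1 as the tables give them, so other starts of these genes were not searched.

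RNF43 and ZNRF3 encode related membrane ubiquitin ligases that remove Frizzled receptors from the surface. RNF43 (ENSG00000108375; chromosome 17, 58352500 to 58417595, minus strand) had 91 reads with PBS, 168 after normo-Migs, 187 after hypo-Migs and 142 after CD147KO-Migs. Its ratio to PBS was 1.87 (1.44 to 2.44), 1.77 (1.37 to 2.30) and 1.54 (1.17 to 2.02), with PBS lowest each time and below the fold criterion. AC004687.2, on the same strand, shares 4326 of the 7505 exonic bases of RNF43 and had at most 9 reads, so the RNF43 level is uncertain. ZNRF3 (ENSG00000183579; chromosome 22, 28883592 to 29057487, plus strand) had 972, 1078, 1210 and 1068 reads in the same order, 28.7 to 31.2 CPM. Its ratio to PBS was 1.12 (1.03 to 1.23) for normo-Migs, the only one of the 3 whose interval left out 1. It was 1.07 (0.983 to 1.17) for hypo-Migs and 1.08 (0.992 to 1.18) for CD147KO-Migs, so that no difference from PBS could be detected there at this depth.

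NOTUM (ENSG00000185269; chromosome 17, 81952507 to 81961840, minus strand) encodes a secreted enzyme that strips the lipid from Wnt ligands. It had 295 reads with PBS, 229 after normo-Migs, 227 after hypo-Migs and 307 after CD147KO-Migs. PBS and CD147KO-Migs were thus the high libraries, at 8.71 and 8.76 CPM, and normo-Migs and hypo-Migs the low ones, at 6.63 and 5.63 CPM. The ratio to PBS was 0.662 (0.554 to 0.789) with hypo-Migs, 0.786 (0.659 to 0.938) with normo-Migs and 1.03 (0.871 to 1.21) with CD147KO-Migs. NOTUM was the only one of the 9 genes tested below its PBS level in any Mig library.

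Levels of different genes can be compared only per length, as FPKM, which the authors computed over all annotated exonic bases of a gene. With PBS, DKK1 (30.5 FPKM) was followed by ZNRF3 (4.03), NOTUM (2.83), SP5 (1.09) and RNF43 (0.351), and no neighbours among these had overlapping intervals. AXIN2 (0.0221) and TCF7 (0.0172) came next and were not distinguishable, and LGR5, LEF1 and NKD1 were listed at 0. With hypo-Migs, DKK1 (40.7) and ZNRF3 (4.29) again came first. NOTUM (1.86), TCF7 (1.82) and SP5 (1.81) then could not be ordered beyond counting error. RNF43 (0.615), NKD1 (0.602), LEF1 (0.516) and AXIN2 (0.482) followed, each with an interval that overlapped that of its neighbour. NKD1 has 17425 annotated exonic bases, the most of the 10 genes, and its FPKM is divided by all of them.

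Between the 3 Mig libraries, 0 of the 9 genes tested were called in any pair, where 4.9% of all genes tested were called for hypo-Migs against normo-Migs, 5.04% for hypo-Migs against CD147KO-Migs and 4.91% for normo-Migs against CD147KO-Migs. Without the PBS library in the scaling and the filter, these counts were also 0, 0 and 0. An unadjusted p under 0.05 in the exact binomial test was found for 1, 4 and 5 of the 9 genes in the same order. The share of all genes under that limit was not computed, so these counts cannot be read as particular to the 9 genes. By the adjusted p alone, 0, 4 and 4 genes passed, against 24.7%, 25.2% and 24.8% of all genes tested. In both pairs with CD147KO-Migs, the 4 genes were NKD1, NOTUM, DKK1 and TCF7. These pairs share the CD147KO-Migs library.

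NKD1 was lowest with CD147KO-Migs, at 6.88 CPM (6.06 to 7.80). The level was 9.03 CPM (8.08 to 10.1) after normo-Migs and 10.5 CPM (9.59 to 11.6) after hypo-Migs. Hypo-Migs exceeded CD147KO-Migs by a log2 fold change of 0.62 (0.39 to 0.86; adjusted p = 2.33e-06 in edgeR's exact binomial comparison). NOTUM went the opposite way, with a log2 fold change of -0.63 (-0.89 to -0.38; adjusted p = 1.62e-05, the same exact test). If replicates were taken to vary with a coefficient of 0.1, the adjusted p became 0.212 for NKD1 and 0.215 for NOTUM (edgeR's exact test). TCF7 had a log2 fold change of -0.25 (-0.40 to -0.10) and DKK1 of 0.18 (0.11 to 0.25) in this pair. Of the 3 inhibitors among these genes, NKD1 and DKK1 were thus higher with hypo-Migs and NOTUM was higher with CD147KO-Migs, as was TCF7.

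For hypo-Migs against normo-Migs, the log2 fold changes ran from -0.38 for SP5 to 0.21 for NKD1, and 7 of the 9 were below 0. Over all genes tested, 10003 of 19895 were below 0 in this pair, and 0 of the 9 passed the adjusted p. AXIN2 had 102 reads in each library, which after scaling is a log2 fold change of -0.23 (-0.65 to 0.17). LEF1 differed by -0.06 (-0.46 to 0.35), so a change of the size of the fold criterion lay outside the interval for both genes. After scaling, the highest Mig library exceeded the lowest 1.55-fold for NOTUM, 1.54-fold for NKD1 and 1.42-fold for AXIN2, and 1.05-fold to 1.30-fold for the other 6 genes tested. Among 13119 genes with at least 50 reads in each Mig library, the median of this ratio was 1.12 and 4.63% exceeded 1.5.

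**Figure D2:**
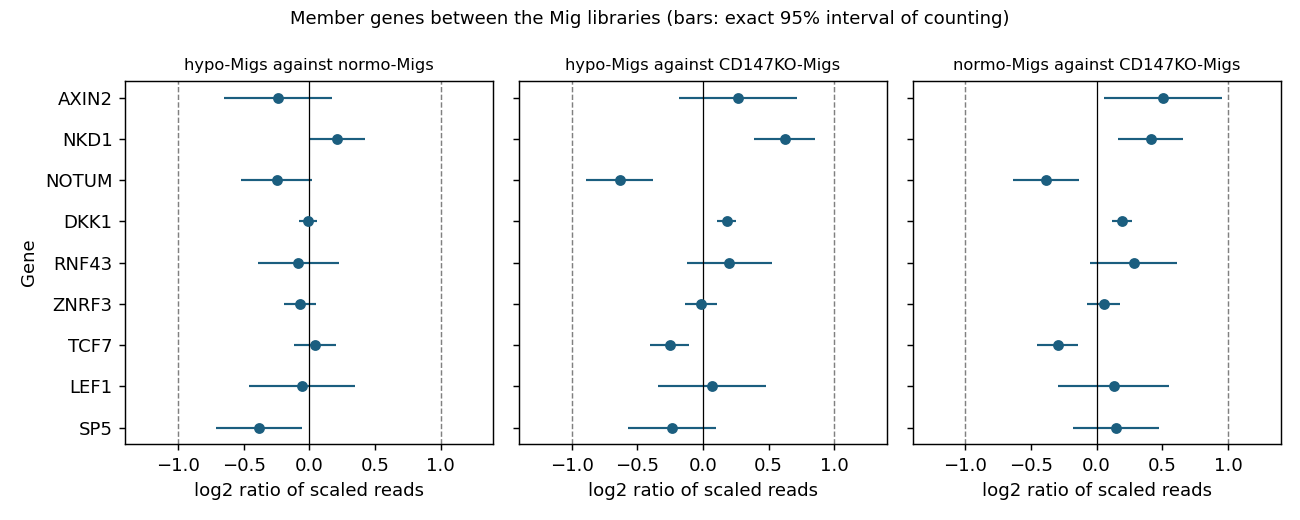
Log2 ratio of scaled reads between pairs of Mig libraries for the 9 genes tested, with exact 95% intervals of counting error. Dashed lines mark the fold criterion, which no interval reaches, since the intervals run from -0.89 to 0.95 over the 3 panels.

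The rest of the pathway was described with 8 lists of 100 genes, 80 of which were tested. Between hypo-Migs and PBS, 34 of the 80 were called higher and 1 lower, against 17.4% and 10.9% of all genes tested, and the median log2 fold change was 0.61 against 0.04 over all genes. With normo-Migs 31 were higher and 1 lower, against 16.5% and 10.7% of all genes. With CD147KO-Migs these counts were 30 and 1, against 16.6% and 10.9%. The shares for hypo-Migs, 17.4% and 10.9%, also stand beside the counts of single lists below. The same PBS library enters all of these counts, and genes with few PBS reads passed the filter only through the Mig libraries.

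Of 14 Wnt ligands tested, 7 were called higher with hypo-Migs and 1, WNT9A, lower (log2 fold change -1.18), and the median log2 fold change was 1.12. The summed level of all 19 ligands went the other way, from 357 CPM with PBS to 273, 278 and 304 CPM after normo-Migs, hypo-Migs and CD147KO-Migs. The abundant ligands WNT7B, WNT5A and WNT10B lay below their PBS level in each Mig library, short of the fold criterion, and WNT7B had 151 CPM with PBS and 76.7 to 84.9 with Migs. WNT6 had 0 reads with PBS and 465, 624 and 757 with normo-Migs, hypo-Migs and CD147KO-Migs. Set against 3 PBS reads, this was 157-fold or more in each. WNT10A had 4 reads with PBS and 432 to 556 with Migs, and WNT7A had 2 and 9 to 27. The cargo receptor WLS, which escorts Wnt ligands to the surface, was 2.56-fold higher with hypo-Migs (2.39 to 2.74). Of the 15 receptors, 6 were called higher and 0 lower, with a median of 0.27. The Frizzled receptor FZD10 had 67 reads with PBS and 3172 with hypo-Migs (40.7-fold, 32.0 to 52.7), FZD9 had 64 and 443, and FZD3 had 287 and 811. Among R-spondins and their receptors, LGR6 was called, with 6 and 30 reads.

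Of 7 secreted and surface antagonists tested, 6 were called higher after hypo-Migs, 4 after normo-Migs and 5 after CD147KO-Migs. Over all genes tested, 17.4%, 16.5% and 16.6% were called higher in that order. The median log2 fold change of the 7 genes against PBS was 1.33, 1.28 and 1.23. Between Mig libraries, 1 of the 7 was called for hypo-Migs against normo-Migs, where 4.9% of all genes tested were. This was SFRP4, with 25 and 4 reads. For hypo-Migs against CD147KO-Migs and normo-Migs against CD147KO-Migs, 0 were called, against 5.04% and 4.91% of all genes. SFRP1, a secreted decoy for Wnt ligands, had 0 reads with PBS and 2698, 3007 and 2306 with normo-Migs, hypo-Migs and CD147KO-Migs, so that it was at least 758-fold higher in each. DKK3 had 13 reads with PBS and 722 with hypo-Migs (47.8-fold, 27.8 to 90.1), and SFRP4 had 0 and 25. For Dishevelled and the destruction complex, 0 of 14 genes were called in any pair with PBS, because none reached the fold criterion. Over all genes tested, 27.2% to 28.3% were called in these pairs. All 14 passed the adjusted p alone in each pair, where 69.7% to 71.3% of all genes tested did. In each pair 6 were higher and 8 lower. For hypo-Migs the log2 fold changes ran from -0.69 to 0.61 with a median of -0.22. CTNNB1, which encodes β-catenin, had 8183 reads with PBS, 9287 after normo-Migs, 10908 after hypo-Migs and 9434 after CD147KO-Migs, a ratio of 1.14 to 1.15 to PBS.

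Of 11 nuclear factors, 3 were called higher with hypo-Migs, where 17.4% of all genes tested were, and the median log2 fold change was 0.42. TCF7L1, a further TCF factor, had 30 reads with PBS and 262 with hypo-Migs (7.51-fold, 5.14 to 11.4), the corepressor TLE2 had 797 and 2903, and PYGO1 had 272 and 662. Of 14 other Wnt target genes tested, 10 were called higher after hypo-Migs, 9 after normo-Migs and 8 after CD147KO-Migs. The shares of all genes tested were 17.4%, 16.5% and 16.6% in that order. SOX9, a factor of biliary and progenitor cells, had 7 reads with PBS and 327 to 441 with Migs, TNFRSF19 had 0 and 42 to 84, and CYP2E1 had 1 and 9 to 26. The median log2 fold change of these target genes against PBS was 2.36 for hypo-Migs, 1.84 for normo-Migs and 1.45 for CD147KO-Migs. With genes at 0 reads set to their bound it was 1.95, 1.60 and 1.44. Directly between Mig libraries, their median was only 0.08 for hypo-Migs against normo-Migs and 0.06 for hypo-Migs against CD147KO-Migs. For normo-Migs against CD147KO-Migs it was -0.04.

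**Figure D3:**
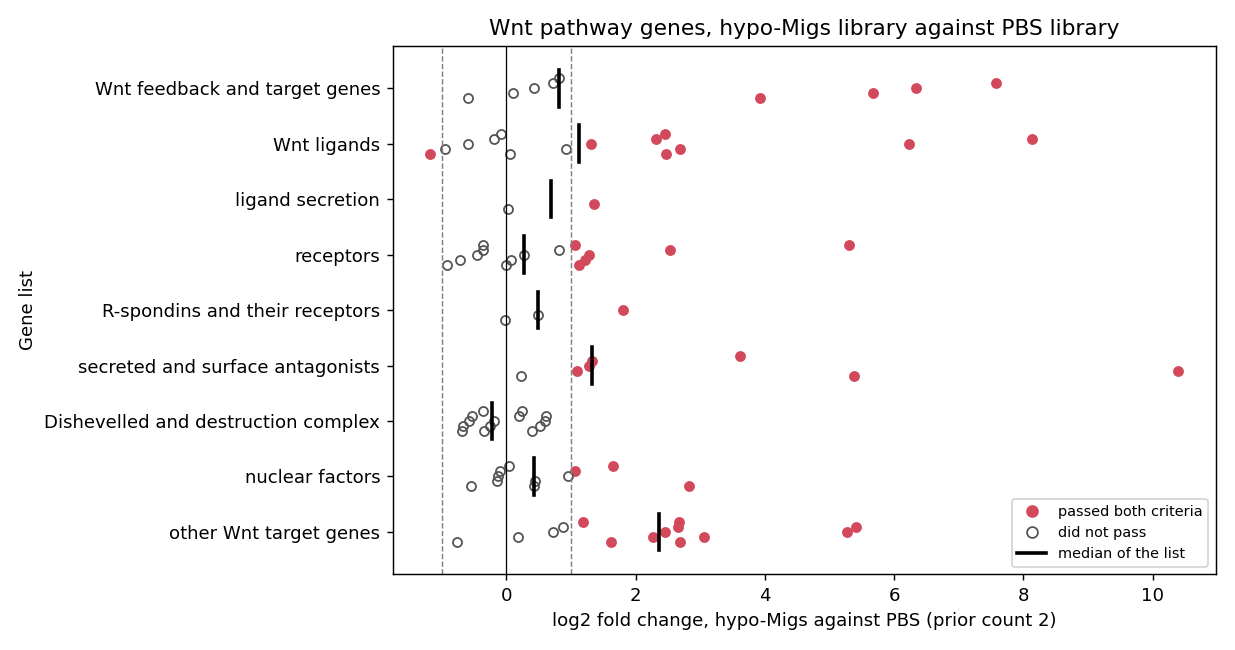
Log2 fold change of hypo-Migs against PBS for every gene tested in each Wnt list, with a prior count of 2. Filled points passed both criteria, open points did not, black bars are medians and dashed lines mark the fold criterion. Filled points lie to the right in all lists apart from Dishevelled and the destruction complex, which has none, and WNT9A, which lies to the left.

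Between Mig libraries, 2 of the 80 genes were called for hypo-Migs against normo-Migs, where 4.9% of all genes tested were. For hypo-Migs against CD147KO-Migs 2 were called, against 5.04%, and for normo-Migs against CD147KO-Migs 0, against 4.91%. The 3 genes concerned had low counts and were higher with hypo-Migs. SLC1A2, a glutamate transporter, had 27 reads with hypo-Migs against 4 for normo-Migs and 8 for CD147KO-Migs, and was called in both pairs. SFRP4 was called against normo-Migs (25 and 4 reads) and WNT7A against CD147KO-Migs (27 and 9 reads).

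Some markers of other cell types also differed from PBS. Of 9 fibroblast and stellate markers, 7 were tested and 5 were called higher with hypo-Migs, where 17.4% of all genes tested were. Their summed level was 26.1 CPM with PBS and 208 to 223 CPM with Migs, whereas COL1A2, a defining collagen chain, had 2 reads with PBS and 0 in the Mig libraries. The 8 endothelial markers summed to 3.98 CPM with PBS and 4.80 to 6.11 with Migs. Within that sum, PECAM1 had 16 reads with PBS and 118 to 146 with Migs, whereas CDH5 had 84 and 30 to 72, and TEK had 11 and 0 to 3. The 8 leukocyte markers summed to 1.00 CPM and 1.65 to 2.97, with CD3E and MS4A1 at 0 throughout. Within that sum, CD14 had 14 reads with PBS and 47 to 86 with Migs, whereas CD79A had 10 and 1 to 7. The part of these markers and of the mitochondrial share in the results above was not tested. In bulk RNA, fewer expressing cells and less RNA per cell cannot be told apart.

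Over the 4 libraries, the protein-coding genes with the pattern closest to AXIN2 were MMP7, FRAS1 and PRR36. Likeness was the distance between log2 profiles centred on their means (prior count 2), searched over 12178 genes averaging 50 or more reads. MMP7 had 5 reads with PBS, 130 after normo-Migs, 123 after hypo-Migs and 95 after CD147KO-Migs, at a distance of 0.11. FRAS1 lay at 0.19 and had 87, 1438, 1722 and 1184 reads, and PRR36 lay at 0.19 with 12, 230, 258 and 200. In all, 72 genes lay within 0.5.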

How the data were processed

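The study gives 4 conditions with 1 library each. The labels name a SMARTER mRNA kit and the methods poly-T selection with random hexamers. According to the submitters' processing notes, CASAVA 1.8, fastp, HISAT2 2.0.5 and featureCounts 1.5.0-p3 were used on hg38, while strand handling is not given in the sources used here. The authors deposited raw counts per gene, without normalization. The authors also deposited FPKM, which equal those reads divided by gene length and by 0.994 to 1.02 times the library total. All 58735 identifiers and the coordinates of the 10 genes matched GENCODE release 29.

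The filter required 10 reads in 1 or more libraries and kept 19895 genes. TMM scaling and log2 fold changes (prior count 2) came from edgeR 4.0.16 in R 4.3.3. A quasi-likelihood fit has no residual degrees of freedom here, so the reads of 2 libraries were compared by edgeR's two-sided exact binomial test with Benjamini-Hochberg adjustment over all genes tested, in 6 pairs. A fold against 0 reads was computed against 3 reads in that library after TMM scaling. The procedure was tested on simulated reads that varied by counting error alone, which is what the exact test assumes. That simulation held no variation between replicates and does not cover it. DESeq2 1.42.0 served as an alternative. Sequences and overlaps were handled in Python 3.11.15.

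The members, lists, tests and 12 alternatives were chosen with earlier results of these data known. Named from the 8 other Wnt lists were CTNNB1, up to 3 called genes per list with the largest difference between hypo-Migs and PBS, and genes called between Mig libraries. The 3 genes closest in profile to AXIN2 were added. Other genes (LGR4, WNT9A, WNT7B, WNT5A, WNT10B, the markers and overlapping genes) were named after their values were seen. Protein sequences were not used here.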

Additional observations from a re-analysis of the deposited data

How the results depend on the processing

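In the pairs of Mig libraries, 0 members were called under each of the 12 alternatives. Between hypo-Migs and normo-Migs, DESeq2 and a coefficient of variation of 0.4 called 0 of all genes tested, so no member could be called there. For the other Mig pairs, the counts over all genes under the alternatives are not given here. In the pairs with PBS, 4, 5 and 4 members were called for hypo-Migs, normo-Migs and CD147KO-Migs. When every library had to hold 10 reads, 0, 1 and 0 were called, because AXIN2, NKD1, TCF7 and LEF1 then were not tested. With DESeq2 over the 4 libraries, 0, 0 and 0 were called, as were 0 of all genes tested. On log2(FPKM + 1) with the fold alone, 1, 1 and 1 were called, namely TCF7. AXIN2, NKD1 and LEF1 lie below the pseudocount in every library. SP5 lies above it, at 1.09 FPKM with PBS and 2.36 with normo-Migs, but its log2 fold change between these libraries fell to 0.68. On log2(FPKM + 0.1), and under other scalings, prior counts and no filter, the counts stayed within 1.5 times. With an assumed coefficient of variation of 0.4, SP5 was not called between normo-Migs and PBS (adjusted p = 0.788, edgeR's exact test). Without a filter, LGR5 was called between normo-Migs and PBS on 6 reads against 0. Over all genes, the 5636 calls between hypo-Migs and PBS became 2744 when every library had to hold 10 reads, 1633 at a coefficient of variation of 0.4 and 1674 on log2(FPKM + 1), and the 975 between hypo-Migs and normo-Migs became 234 under the same filter, 259 at a coefficient of 0.1, 0 at 0.4 and with DESeq2, 56 on log2(FPKM + 1) and 1858 by the fold alone. The log2 fold change of DKK1 between hypo-Migs and normo-Migs was -0.01 and turned to 0.0040 without TMM, within counting error. No paired analysis was possible because each condition had 1 library, and for the same reason no replicate could be left out.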
